A study of Homo sapiens with 12 samples.

Results

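The 39 genes described here encode the proteins that copy DNA in S phase, from the loading of the replicative helicase at origins to the supply of nucleotides and histones. They were named as a set, by function, and a gene counted as present when its normalized read count was at least 1 in at least 3 of 12 RNA sequencing libraries. All 39 met this rule, among 18648 genes that met it and 57773 in the table. The libraries came from A498, an established human kidney carcinoma cell line, transfected with a control siRNA (control), an siRNA against ELOVL2 (siELOVL2), an siRNA against ELOVL5 (siELOVL5) or both (double knockdown), with 3 biological replicates a group and 1 batch label for all 12. Such small interfering RNAs direct the cell to degrade the mRNA they pair with. ELOVL2 and ELOVL5 are membrane enzymes that lengthen polyunsaturated fatty acids. The labels name no further treatment, and the sources used here do not give the siRNA sequences, dose or harvest time. Loss of the enzyme and any other effect of the same siRNA cannot be told apart.

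DNA replication begins in G1, when the origin recognition complex, CDC6 and CDT1 load the MCM2-7 ring onto DNA, a step called licensing. At the start of S phase, CDC45 and the GINS complex join the ring and turn it into an active helicase, and polymerases, a sliding clamp and a clamp loader assemble behind it. Most of these genes are transcribed in late G1 and S phase by E2F factors, which are held back by the retinoblastoma protein until cyclin-dependent kinases act on it, so their RNA is widely used as a readout of how much of a culture is replicating. Bulk RNA cannot tell fewer cells in S phase from less RNA per cell.

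The sequences that E2F factors recognise stand in the promoters of many of these genes, and 8 of them are printed here because they mark the shared control for which the set is known. They come from RefSeq promoters (GRCh38.p14, 250 bases before to 50 after the start). The search was for the words TTTCGCGC, TTTGGCGC, TTTCCCGC and TTTGCCGC on either strand. Each window is 30 bases, 5′ to 3′ on the gene's strand, with the word in capitals. A word that appears as its reverse complement begins with GCG.
MCM3, chr6:52284728-52284757, minus strand: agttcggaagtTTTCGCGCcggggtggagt
MCM7, chr7:100101388-100101417, minus strand: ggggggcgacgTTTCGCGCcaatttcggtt
CDT1, chr16:88803743-88803772, plus strand: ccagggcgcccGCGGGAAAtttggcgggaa
GINS2, chr16:85688967-85688996, minus strand: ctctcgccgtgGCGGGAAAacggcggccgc
POLE2, chr14:49688201-49688230, minus strand: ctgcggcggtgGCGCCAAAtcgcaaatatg
PCNA, chr20:5126663-5126692, minus strand: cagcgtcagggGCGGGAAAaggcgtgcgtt
TYMS, chr18:657603-657632, plus strand: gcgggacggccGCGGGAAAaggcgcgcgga
DTL, chr1:212035729-212035758, plus strand: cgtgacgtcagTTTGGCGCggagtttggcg
Of the 39 genes, 36 had a promoter in the table, with 47 promoters between them. An E2F word stood in 21 of the 47 (44.7%), against 3.31% of all 35116 promoters, and in at least 1 promoter of 20 genes (55.6% of 36), against 3.99% of all genes. CDC45 was among the 16 genes without one. The word CCAAT, on either strand, stood in 27 of the 47 (57.4%), against 34.6% of all promoters. A match describes the letters in this window and is not evidence of binding.

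The siRNAs lowered their targets. ELOVL2 stood at 299, 299 and 211 normalized counts in control replicates 1, 2 and 3 and at 27.0, 30.1 and 18.4 in the siELOVL2 libraries. ELOVL5 stood at 1939, 1954 and 2038 in control and at 147, 141 and 156 in the siELOVL5 libraries. The double knockdown held ELOVL2 at 25.4, 26.5 and 19.9 and ELOVL5 at 177, 172 and 187. The estimated depth was 6.69 to 10.7 M reads a library. The 8 kidney epithelial and carcinoma markers were all detected, though EPCAM reached at most 7.50 and CA9 at most 29.1. Their summed counts were 32807 to 33356 in control, 26929 to 27763 in siELOVL2, 25256 to 31151 in siELOVL5 and 24689 to 28843 in the double knockdown. PAX8 ranged from 511 to 677. VIM stood at 71.0% of control in siELOVL2 and 67.5% in the double knockdown, and CDH6 at 45.4% and 36.2%. KRT8 stood at 122% and 122%, and KRT18 at 120.0% and 123%. None of these was called with all libraries. VIM lay below the controls in both knockdowns, while CDH6, KRT8 and KRT18 overlapped them. CDH6 rose from replicate 1 to replicate 3 in every group, with 1105, 2621 and 3863 in control and 299, 1148 and 1996 in siELOVL2. The 5 leukocyte markers summed to at most 9.67, with CD3E at 0 in all 12 libraries and CD14 at 0 in none, and the 3 endothelial markers with a row to at most 7.17. The 5 fibroblast and pericyte markers summed to 362 to 460.0 in control, 268 to 355 in siELOVL2, 399 to 444 in siELOVL5 and 275 to 325 in the double knockdown, nearly all of it COL1A1 and PDGFRB, with LUM at 0 in 12 libraries and COL3A1 and DCN in 11. The part of these markers in the replication values was not tested. The replicates are labelled biological, but whether they were separate transfections is not stated, so p-values measure the spread between these libraries.

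As a set, the replication genes stood modestly below control in siELOVL2 and in the double knockdown, and lowest of all in siELOVL5 replicate 3. The members' log2 distance from the control mean had a median of 0.02, -0.04 and 0.04 in control replicates 1, 2 and 3. It was -0.24, -0.25 and -0.36 in the siELOVL2 replicates, and -0.39, -0.27 and -0.48 in the double-knockdown replicates. These 6 libraries lay below the controls. The siELOVL5 replicates were uneven, at -0.09, -0.18 and -0.85. The normalized counts of the 39 genes summed to 32835 to 34449 in control, 26358 to 28596 in siELOVL2 and 24483 to 28297 in the double knockdown. In siELOVL5 the sums were 31639 and 29639 in replicates 1 and 2 and 19111 in replicate 3.

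**Figure D1:**
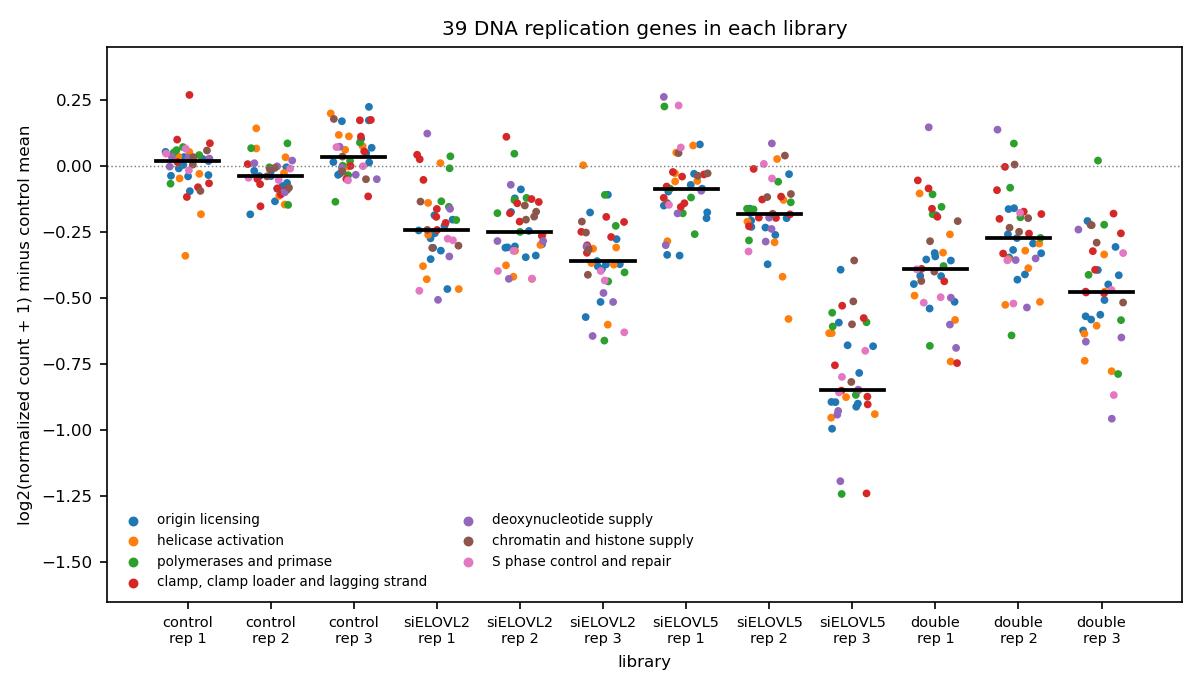
Points give, for the 12 libraries, the log2 distance of the 39 replication genes from their means in the 3 control libraries. Point colours mark the roles, and black bars give the median of each library. The points of siELOVL5 replicate 3 are the lowest of the 12 libraries for 36 of the 39 genes. Those of siELOVL2 and the double knockdown lie mostly below the controls.

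In siELOVL5 replicate 3, 36 of the 39 genes had their lowest value of all 12 libraries, while 3488 tested genes (18.7%) had theirs there. The exceptions were ORC6, CDC45 and CLSPN. Each of the 39 was lowest of the siELOVL5 libraries in that replicate, at 43.3% (FEN1) to 82.2% (GINS2) of the mean of the other two, with a median of 63.5%. That library also had the lowest share of mitochondrially encoded counts, 1.17% against 1.39% to 1.59% in the others, and the lowest weight when libraries were weighted by their spread, 0.228. The part of these features in the replication values was not tested. Calls among the 39 against control are therefore given with and without it, as are the siELOVL5 folds printed for single genes. That library was singled out in part by the values of these same 39 genes. Calls made without it are therefore not a separate test of them.

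Folds were fitted as log2(normalized count + 1) with limma in all 4 groups together, and a gene is called when its p, adjusted by Benjamini-Hochberg over all tested genes, is under 0.05. In siELOVL2 against control, the fold of each of the 39 genes was below control, with a median of -0.26 on the log2 scale against 0.02 for all tested genes. Their range ran from -0.53 (TK1) to -0.01 (POLA2). In 27 of the 39, the 3 knockdown libraries lay below the 3 controls, against 10.4% of all tested genes. With limma, 0 of the 39 were called, and 13 had an unadjusted p under 0.05 (13.7% of all tested genes had). Over all tested genes, 0.815% were called lower and 0.547% higher. Without siELOVL5 replicate 3, 14 of the 39 were called lower (2.37% of tested genes were), and 27 had an unadjusted p under 0.05 (18.2% of tested genes had). That library enters this comparison through the pooled spread and the filter, which then left 18447 genes. These 14 were CDC6, CDT1, MCM3, MCM4 and MCM5 of licensing, CDC45, MCM10 and GINS1 of helicase activation, and PCNA, TK1, TYMS, SLBP, DTL and EXO1. With any other single library left out, 0 of the 39 were called in siELOVL2.

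In siELOVL5 against control, the 39 folds were again below control, with a median of -0.36 against 0.00 for all tested genes. The 3 libraries lay below the 3 controls for 17 of the 39, against 7.04% of tested genes. With limma, 0 of the 39 were called, and 21 had an unadjusted p under 0.05 (9.56% of tested genes had), while 0.123% of tested genes were called lower and 0.0161% higher. With that replicate 3 left out the median was -0.14, 33 of the 39 folds were below control and 8 had an unadjusted p under 0.05 (7.22% of tested genes had). MCM5 was then the 1 member called lower (0.195% of tested genes were).

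In the double knockdown against control, 38 of the 39 folds were below control and the median was -0.39, against 0.02 for all tested genes. The exception was RRM2, at 0.01. The 3 libraries lay below the 3 controls for 32 of the 39, against 11.4% of tested genes. CDC45 and GINS2 were called lower, where 2.27% of tested genes were called lower and 2.15% higher, and 25 members had an unadjusted p under 0.05 (18.8% of tested genes had). No member was called once replicate 3 of the control, or replicate 1 or replicate 3 of the double knockdown, was left out. The count was 1 when the library left out was replicate 1 or 2 of the control, replicate 2 of siELOVL2 or replicate 2 of the double knockdown. Without siELOVL5 replicate 3, 24 were called lower (4.91% of tested genes were) and 32 had an unadjusted p under 0.05 (23.6% of tested genes had). Of these 24, 9 belong to licensing, which is that group without MCM6, 4 to helicase activation and 3 to deoxynucleotide supply.

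**Figure D2:**
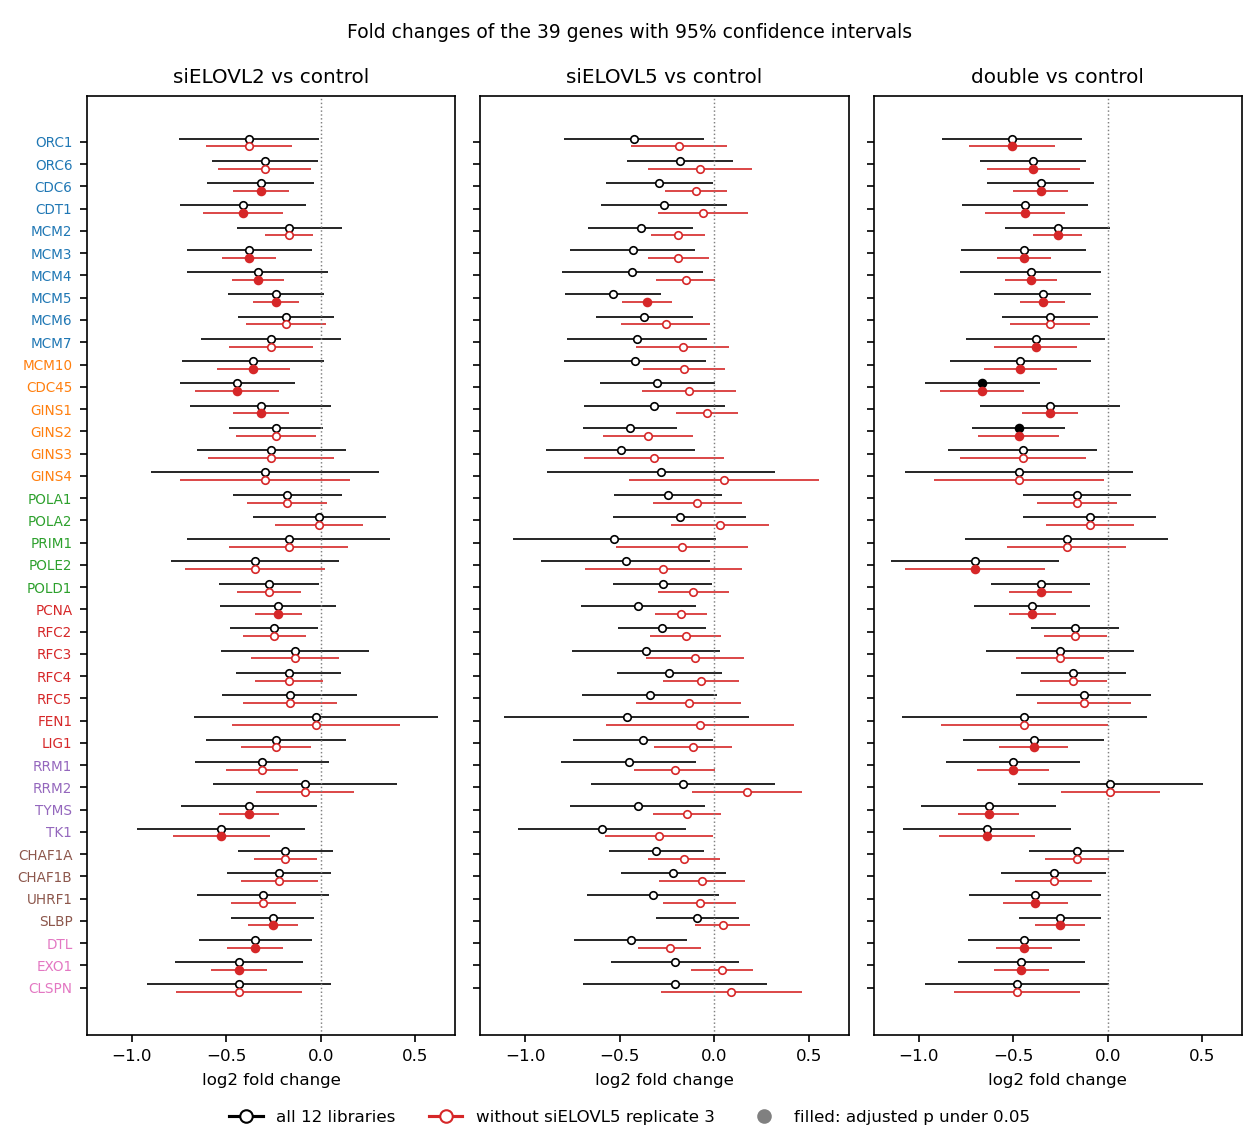
Points give the log2 fold change against control of each of the 39 genes with its 95% confidence interval from limma, in black for all 12 libraries and in red without siELOVL5 replicate 3; filled points have an adjusted p under 0.05, and the colours of the gene names mark the roles. With all libraries, points lie left of 0 except RRM2 in the double knockdown, and the filled black points are CDC45 and GINS2 there.

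CDC45 and the GINS complex convert the loaded MCM ring into the moving helicase. The 2 calls of the double knockdown, out of 39 members, were CDC45 and GINS2, where 4.42% of all tested genes were called either way. No other GINS subunit was called there with all libraries. CDC45 stood at 348, 310.3 and 350.2 normalized counts in control, 249, 273 and 221 in siELOVL2, 322, 289.9 and 216 in siELOVL5, and 200.5, 235 and 201 in the double knockdown. The 3 siELOVL2 and the 3 double-knockdown libraries lay below the controls, while siELOVL5 overlapped them. In the double knockdown CDC45 fell to 63.1% of the control mean, a log2 fold change of -0.66 (SE 0.14, limma adjusted p = 0.0193). Over the alternative settings that p ran from 0.00187 to 0.0824. In siELOVL2 its log2 fold change was -0.44 (SE 0.14, limma adjusted p = 0.16).

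GINS2, 1 of the 4 subunits of GINS, stood at 328, 389.8 and 404 in control, 338, 311 and 300.3 in siELOVL2, 305, 278 and 239.7 in siELOVL5, and 248, 291 and 267 in the double knockdown. The siELOVL5 and double-knockdown libraries lay below the controls, and siELOVL2 overlapped them. In the double knockdown GINS2 fell to 71.9% of the control mean, a log2 fold change of -0.47 (SE 0.11, limma adjusted p = 0.0359). The alternatives gave 0.0067 to 0.136. In siELOVL5 its log2 fold change was -0.45 (SE 0.11), close to that of the double knockdown, with a limma adjusted p of 0.22, and -0.35 without replicate 3.

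MCM10, a scaffold that helps the helicase start, stood at 573, 599 and 584 in control, 449.8, 468 and 452 in siELOVL2, 574, 479 and 305 in siELOVL5, and 416, 477 and 384 in the double knockdown. Its siELOVL2 libraries were close to each other and below the controls, and its siELOVL5 libraries spread from the control level downward. GINS1 and GINS3 stood at 80.9% and 73.2% of control in the double knockdown. GINS4, the subunit with the lowest counts, overlapped control in all 3 knockdowns, with 70.8 to 103 in control and 52.0 to 83.5 in the double knockdown. As a group, the 6 genes of helicase activation had a median log2 fold change of -0.31 in siELOVL2, -0.37 in siELOVL5 (-0.15 without replicate 3) and -0.47 in the double knockdown.

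The 10 licensing genes had medians of -0.31, -0.40 (-0.18 without replicate 3) and -0.39 in siELOVL2, siELOVL5 and the double knockdown. CDC6, the loader of the MCM ring, stood at 822, 806 and 905 in control, 707, 681 and 643 in siELOVL2, 826, 754 and 526 in siELOVL5, and 659.5, 676 and 642 in the double knockdown. Its siELOVL2 and double-knockdown libraries lay below the controls, while siELOVL5 replicate 1 lay among them. The log2 fold change of CDC6 was -0.32 (SE 0.13) in siELOVL2 and -0.36 (SE 0.13) in the double knockdown, with limma adjusted p-values of 0.297 and 0.155.

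MCM2, a subunit of the ring, stood at 1539.8, 1509 and 1603 in control, 1346, 1423 and 1372 in siELOVL2, 1351, 1360.1 and 899.8 in siELOVL5, and 1233, 1387 and 1253 in the double knockdown. Each knockdown lay below the controls without overlap. Its log2 fold changes were -0.17 (SE 0.13), -0.39 (SE 0.13) and -0.27 (SE 0.13), and none was called by limma (adjusted p = 0.618, 0.36 and 0.29). Without replicate 3 its siELOVL5 fold was -0.19. The other ring subunits stood at 77.0% (MCM3) to 88.0% (MCM6) of control in siELOVL2 and at 73.5% (MCM3) to 80.8% (MCM6) in the double knockdown. CDT1, which brings MCM to the origin, had the lowest siELOVL2 fold of the licensing genes, -0.41, and ORC1, the largest subunit of the origin recognition complex, the lowest double-knockdown fold, -0.51. ORC6 had the smallest siELOVL5 difference with all libraries, -0.18, and stood at -0.08 without replicate 3, where the smallest was that of CDT1, -0.06.

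MCM5 is named after its values were seen, as the member called in siELOVL5 without replicate 3. It stood at 1422, 1402 and 1433 in control, 1246, 1196 and 1171 in siELOVL2, 1121, 1096 and 763 in siELOVL5, and 1118, 1174 and 1065 in the double knockdown. The 3 controls differed little, and siELOVL5 replicates 1 and 2 lay below every siELOVL2 library. Its log2 fold change in siELOVL5 was -0.54 (SE 0.12, limma adjusted p = 0.135) with all libraries and -0.36 (SE 0.06) without replicate 3.

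**Figure D3:**
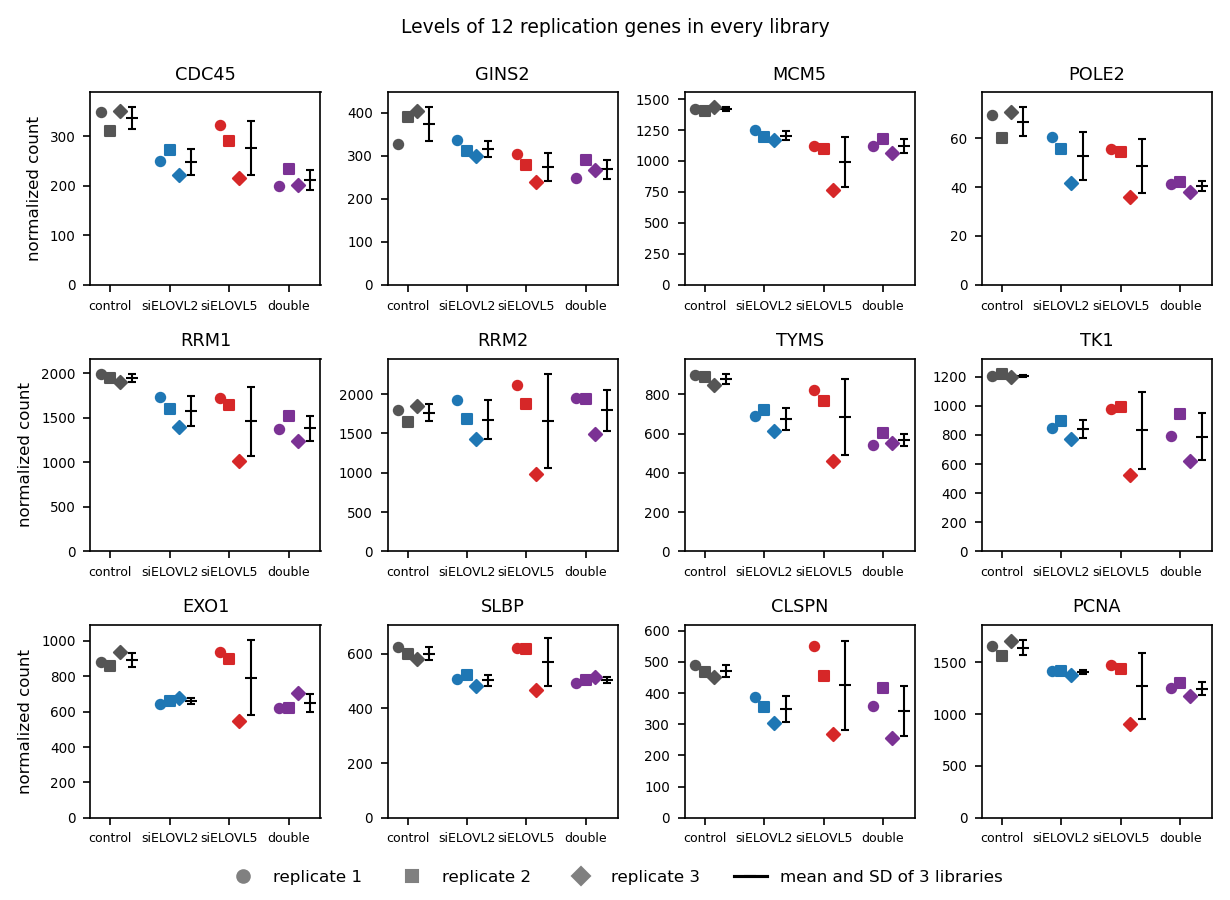
Panels give the normalized counts of 12 replication genes in each of the 12 libraries by group, with marker shapes for the replicate number and bars for the group mean and SD (n = 3). The siELOVL5 replicate 3 library is the lowest of its group in every panel. RRM2 overlaps control in every knockdown. CDC45, EXO1, SLBP and CLSPN overlap control in siELOVL5, and GINS2 and POLE2 in siELOVL2.

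The 5 polymerase and primase genes ranged from -0.70 (POLE2) to -0.09 (POLA2) in the double knockdown. POLE2, the accessory subunit of the leading-strand polymerase, stood at 69.3, 59.9 and 70.8 in control, 60.5, 55.8 and 41.7 in siELOVL2, 55.4, 54.5 and 36.0 in siELOVL5, and 41.1, 42.2 and 38.1 in the double knockdown. The 3 double-knockdown libraries were close together and below every control, at 60.7% of the control mean, the lowest share of the 39 genes in that comparison. The log2 fold change of POLE2 there was -0.70 (SE 0.21, limma adjusted p = 0.0749), and 0.0222 to 0.207 over the alternatives.

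POLA2, the accessory subunit of the polymerase that carries primase, stood at 275, 246 and 265 in control, 268, 269.9 and 242 in siELOVL2, 306, 233 and 171 in siELOVL5, and 242, 228 and 265 in the double knockdown. It overlapped control in all 3 knockdowns. Its log2 fold changes of -0.01, -0.18 and -0.09 (each SE 0.16) were not called by limma (adjusted p = 1, 0.754 and 0.812). Its siELOVL5 value turned to 0.03 without replicate 3. POLA1 and PRIM1, which form the same complex, stood at 89.3% and 87.3% of control in the double knockdown. POLD1, the catalytic subunit of the lagging-strand polymerase, stood at 82.9% in siELOVL2, 83.8% in siELOVL5 (92.5% without replicate 3) and 78.2% in the double knockdown, with no overlap with control in any of them.

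PCNA, the sliding clamp that holds polymerases on DNA, stood at 1656, 1562 and 1703 in control, 1411, 1416 and 1379 in siELOVL2, 1471, 1429.7 and 908 in siELOVL5, and 1251, 1302 and 1176 in the double knockdown. The double-knockdown libraries lay below the siELOVL2 libraries, and both groups below control. Its log2 fold changes were -0.23, -0.40 and -0.40 (each SE 0.14), with limma adjusted p-values of 0.53, 0.392 and 0.138, and the siELOVL5 value was -0.18 without replicate 3. PCNA, with siELOVL5 replicate 3 left out, was called in siELOVL2 and in the double knockdown.

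RFC3, a subunit of the clamp loader, stood at 493, 438 and 464 in control, 478, 409.9 and 385 in siELOVL2, 439.8, 425 and 253 in siELOVL5, and 406, 436 and 334 in the double knockdown. Control overlapped siELOVL2 and siELOVL5, and the highest double-knockdown library lay just below the lowest control. The log2 fold change of RFC3 in the double knockdown was -0.25 (SE 0.18, limma adjusted p = 0.503). RFC2, RFC4 and RFC5 stood at 88.7%, 87.8% and 91.6% of control there, and none of the 4 loader subunits was called in any comparison with control, with or without siELOVL5 replicate 3. LIG1, which seals the lagging strand, stood at 76.3%, and FEN1, which trims it, at 73.4%. FEN1 counts were low, 18.4 to 54.2, and its double-knockdown libraries lay just below the controls, with 39.4 against 40.2 at the nearest.

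Among the genes of deoxynucleotide supply, TYMS, TK1 and RRM1 stood further below control than RRM2. TYMS, which makes thymidylate, stood at 896, 889.6 and 847 in control, 692, 720.2 and 614 in siELOVL2, 822, 766 and 461 in siELOVL5, and 544, 605 and 553 in the double knockdown. Each group lay below control, and the double knockdown lay below siELOVL2. Its double-knockdown log2 fold change was -0.63 (SE 0.17, limma adjusted p = 0.0505), 64.6% of control. Over the alternatives that p ran from 0.000336 to 0.156, and the lowest was without siELOVL5 replicate 3. TYMS shares its locus with ENOSF1 and TYMSOS, and since the strand setting of the counting is not stated, its counts may include theirs.

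TK1, the salvage kinase for thymidine, stood at 69.5%, 68.9% and 65.1% of control in siELOVL2, siELOVL5 and the double knockdown, the lowest of the group in both single knockdowns, with control libraries of 1201 to 1215. Its log2 fold changes were -0.53, -0.59 and -0.64 (each SE 0.21), with limma adjusted p-values of 0.262, 0.381 and 0.103. In siELOVL5 without replicate 3, TK1 stood at 81.6% of control, a log2 fold change of -0.29.

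RRM1 and RRM2 are the large and small subunits of ribonucleotide reductase, which makes deoxynucleotides. RRM2 stood at 1796, 1643 and 1852 in control, 1918, 1676 and 1425 in siELOVL2, 2111, 1868 and 979 in siELOVL5, and 1949, 1937 and 1490.2 in the double knockdown. It overlapped control in every knockdown, and its log2 fold changes of -0.08, -0.17 and 0.01 (each SE 0.23) were not called by limma (adjusted p = 0.922, 0.858 and 0.997). Without replicate 3 the siELOVL5 value turned to 0.17, with replicates 1 and 2 both above the 3 controls. RRM1 stood at 1992, 1942 and 1899 in control and at 1375, 1525 and 1239 in the double knockdown, 70.9% of control, a log2 fold change of -0.50 (SE 0.16, limma adjusted p = 0.109).

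The ratio of RRM2 to RRM1 counts was examined after these values were seen, as a description with no test. It was 0.901, 0.846 and 0.975 in control, 1.10, 1.05 and 1.02 in siELOVL2, 1.23, 1.13 and 0.968 in siELOVL5, and 1.42, 1.27 and 1.20 in the double knockdown. The siELOVL2 and double-knockdown libraries lay above the controls, and siELOVL5 replicate 3 lay among them. Counts are not per transcript length, so only differences of the ratio between libraries can be read.

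UHRF1, which recruits the maintenance DNA methyltransferase to new DNA, stood at 1087, 1054 and 1109.9 in control, 873, 948 and 814 in siELOVL2, 1055, 998 and 614 in siELOVL5, and 820.5, 921 and 756 in the double knockdown. The siELOVL2 and double-knockdown libraries lay below the controls. Its log2 fold changes were -0.31, -0.32 and -0.38 (each SE 0.16, limma adjusted p = 0.443, 0.55 and 0.218), and the siELOVL5 value was -0.08 without replicate 3.

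SLBP, which binds and stabilises replication-dependent histone mRNA, stood at 625, 597 and 579 in control, 507, 521 and 481 in siELOVL2, 620.3, 616 and 468 in siELOVL5, and 492, 504 and 514 in the double knockdown. Replicates 1 and 2 of siELOVL5 lay within the control range, and the siELOVL2 and double-knockdown libraries lay below it. Its log2 fold change was -0.25 (SE 0.10) in both of those groups, with limma adjusted p-values of 0.272 and 0.192, and -0.09 (SE 0.10, adjusted p = 0.816) in siELOVL5, where it turned to 0.04 without replicate 3. The chromatin assembly factor subunits CHAF1A and CHAF1B stood at 87.9% and 85.5% of control in siELOVL2 and at 89.5% and 81.9% in the double knockdown.

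DTL, the adaptor that targets CDT1 for destruction in S phase, stood at 1378, 1293 and 1333 in control, 1097, 1067 and 987 in siELOVL2, 1204, 1065 and 736 in siELOVL5, and 945, 1041 and 963 in the double knockdown. Every knockdown library lay below the controls. Its log2 fold changes were -0.35, -0.44 and -0.44 (each SE 0.14, limma adjusted p = 0.273, 0.334 and 0.0923), and the siELOVL5 value was -0.24 without replicate 3.

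CLSPN, the mediator between stalled forks and the CHEK1 kinase, stood at 492, 466 and 452 in control, 388, 356 and 303 in siELOVL2, 550.5, 454 and 269.5 in siELOVL5, and 358, 415 and 257 in the double knockdown. The siELOVL5 libraries ran from above to below the controls, at 90.4% of the control mean with all libraries and 107% without replicate 3. The double-knockdown fold of CLSPN was -0.48 (SE 0.23, limma adjusted p = 0.274). EXO1, a nuclease of mismatch and break repair, stood at 74.0% of control in siELOVL2, 88.9% in siELOVL5 (103% without replicate 3) and 72.9% in the double knockdown.

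The knockdowns were also compared with each other. In the double knockdown against siELOVL2, the member median was -0.10 and all tested genes had 0.00. With limma, 0 of the 39 were called and 0 had an unadjusted p under 0.05 (3.60% of tested genes had), where 0.059% of tested genes were called lower. The double-knockdown libraries lay below the siELOVL2 libraries for 3 of the 39, GINS2, PCNA and TYMS, against 4.33% of tested genes. For TYMS the difference was -0.25 (SE 0.17).

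In the double knockdown against siELOVL5, the median was -0.01 with all libraries and -0.25 without siELOVL5 replicate 3. With limma, 0 members were called and 1, CDC45, had an unadjusted p under 0.05 (17.4% of tested genes had), where 1.41% of tested genes were called lower. Without that library, CDC45, EXO1, SLBP and TYMS were called lower (2.24% of tested genes were) and 22 members had an unadjusted p under 0.05 (18.3% of tested genes had). In siELOVL5 against siELOVL2 the median was -0.07 with all libraries and 0.12 without siELOVL5 replicate 3. With limma, 0 members were called in the first case and 1, MCM5, had an unadjusted p under 0.05 (17.2% of tested genes had), where 1.56% of tested genes were called lower and 1.46% higher. In the second case EXO1 and SLBP were called higher in siELOVL5 (1.91% of tested genes were). EXO1 stood at 879, 858 and 935 in control, 641, 662 and 675 in siELOVL2, 934, 895 and 547 in siELOVL5, and 621, 619.8 and 708 in the double knockdown. Its difference between siELOVL5 and siELOVL2 was 0.22 (SE 0.16) with all libraries and 0.47 (SE 0.08) without replicate 3.

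The interaction asks whether both siRNAs together differ from the sum of the single log2 effects. Its member median was 0.25, and 0.05 without siELOVL5 replicate 3, against 0.01 for all tested genes. With limma, 0 of the 39 were called and 2, MCM5 and RFC2, had an unadjusted p under 0.05 (2.80% of tested genes had). Over all tested genes 0% were called, with or without that library.

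The medians of the 20 with a word and the 16 without were -0.28 and -0.25 in siELOVL2, -0.37 and -0.30 in siELOVL5 with all libraries, and -0.40 and -0.32 in the double knockdown. In the double knockdown the 20 genes with a word stood at 60.7% (POLE2) to 93.7% (POLA2) of control. The 16 without stood at 63.1% (CDC45) to 102% (RRM2). The 8 genes whose windows are printed above stood at 60.7% to 77.4% (MCM7). Those with a word but no printed window stood at 72.9% (EXO1) to 93.7% (POLA2), so the printed 8 do not stand for all 20.

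Other genes of the replication machinery, 44 in a list that includes the remaining origin, polymerase and replication protein A subunits, stood closer to control than the 39. Their medians were -0.11, -0.23 (-0.061 without siELOVL5 replicate 3) and -0.16 in siELOVL2, siELOVL5 and the double knockdown. ORC5, an origin recognition subunit, rose in siELOVL2, with 368, 300 and 357 in control and 442, 463 and 444 in siELOVL2 (log2 fold change 0.40, SE 0.09, limma adjusted p = 0.045). POLD3, an accessory subunit of the lagging-strand polymerase, fell in the double knockdown, with 286, 305 and 335 in control and 193, 220 and 223 there (-0.54, SE 0.11, limma adjusted p = 0.0121). With all libraries each was the only 1 of the 44 called in its comparison. Among all tested genes, 0.547% were called higher in siELOVL2 and 2.27% lower in the double knockdown. With limma, 0 of the 44 were called in siELOVL5, where 9 had an unadjusted p under 0.05 (9.56% of tested genes had). The folds there ran from -0.55 (DSCC1, -0.16 without replicate 3) to 0.61 (SAMHD1, 0.45 without it). Leaving out siELOVL5 replicate 3, 4 were called lower and 1 higher in siELOVL2, and 9 lower and 1 higher in the double knockdown. Of all tested genes, 4.49% and 9.64% were then called either way in these 2 comparisons.

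The 21 E2F factors, pocket proteins and G1/S cyclins and kinases moved in both directions. In siELOVL2, 1 was called lower and 2 higher (0.815% and 0.547% of tested genes were). In siELOVL5 0 were called, and 9 had an unadjusted p under 0.05 with limma (9.56% of tested genes had). In the double knockdown 4 were called lower and 2 higher (2.27% and 2.15% of tested genes were). TFDP1, the partner that E2F factors need to bind DNA, fell to 713, 698 and 721 in siELOVL2 and 631, 649.6 and 575 in the double knockdown from 1078, 1084 and 1149 in control (-0.63 and -0.84, SE 0.13, limma adjusted p = 0.0295 and 0.0032). E2F5, a repressor E2F, rose by 0.81 and 0.82 (SE 0.14), and CCNE1, the cyclin E that drives entry into S phase, rose by 0.50 and 0.57 (SE 0.10), in siELOVL2 and the double knockdown. CDK2, the kinase that cyclin E activates, fell by 0.75 (SE 0.14) in the double knockdown, from 245 to 267 in control to 135 to 163. CCND1 and CDK4 also fell there, by 0.44 and 0.31.

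The mitosis and G2/M genes also stood below control. All 20 had folds below control in each knockdown, with medians of -0.43, -0.42 (-0.06 without siELOVL5 replicate 3) and -0.57. With limma, 0 of the 20 were called in each, and 2, 1 and 10 had an unadjusted p under 0.05, against 13.7%, 9.56% and 18.8% of all tested genes. Without siELOVL5 replicate 3, 2 were called lower in siELOVL2, 0 in siELOVL5 and 8 in the double knockdown, against 2.37%, 0.195% and 4.91% of tested genes. BIRC5, which guides chromosome segregation, had the lowest double-knockdown fold, -0.83 (limma adjusted p = 0.0652), and CCNB1, the mitotic cyclin B, the smallest difference, -0.35. The list's distance from the control mean was 0.16, 0.04 and -0.20 in control replicates 1, 2 and 3, -0.20, -0.33 and -0.72 in siELOVL2, 0.03, -0.13 and -1.15 in siELOVL5, and -0.43, -0.31 and -1.03 in the double knockdown. Replicate 3 was the lowest of its group in all 4 groups for these genes, and siELOVL5 replicate 3 was the lowest library, as for the 39. Of the CDK inhibitors, which block entry into S phase, 5 of 7 were tested and 0 were called by limma. An unadjusted p under 0.05 was reached by 1, 0 and 1, against 13.7%, 9.56% and 18.8% of tested genes. CDKN1A had the highest fold in each knockdown with all libraries, 0.37, 0.14 and 0.33. Without siELOVL5 replicate 3 its siELOVL5 fold turned to -0.04, and CDKN1B had the highest, 0.13.

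**Figure D4:**
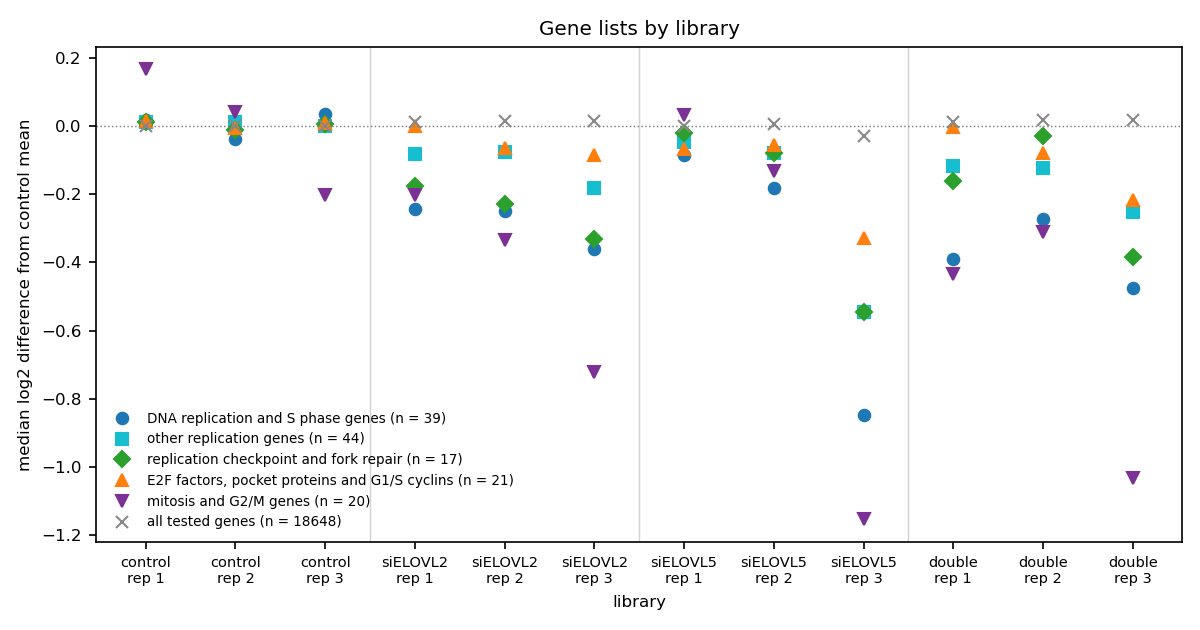
Points give, for each of the 12 libraries, the median log2 distance from the control mean over the 39 replication genes, over 4 other gene lists and over all tested genes. The 39 genes and the mitosis list are both lowest in siELOVL5 replicate 3, at -0.85 and -1.15, where all tested genes stand at -0.03.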

How the data were processed

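RNA from 12 A498 libraries was sequenced as paired-end 36-base reads on a NextSeq 500, per the labels. The authors deposited 1 normalized signal value per gene and library; the sources used here do not give the aligner, counter, annotation, build or strand setting. Every column holds the same sorted values, each a multiple of 1/12, as after quantile normalization of counts across 12 libraries, so every library totals 8.525317 M and differences in total RNA are removed. Depth was estimated from the order of tied low values; on simulated data the estimate was 0.986 to 1.007 of the true depth.

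Values were analysed with limma 3.58.1 in R 4.3.3 as log2(value + 1), with an intensity trend, 4 groups together and 8 residual degrees of freedom, for the 18648 genes reaching 1 in 3 or more libraries. Benjamini-Hochberg adjustment was made within each comparison. Tested on simulated data for siELOVL2 against control (19317 genes, 200 changed), it recovered 96% of 2-fold and 17% of 1.3-fold changes, and 3.42% of its calls were false. The simulation gave every gene the same biological spread and changed only genes above a set mean level. It held no outlying library, no replicate effect and no correlation between genes. Library values are given for called members and 14 preset ones, 2 a role; others are named where they are the extreme of their role group, or as chosen after their values were seen. From the other lists, up to 4 called genes or the largest fold each way are named. The members, lists and tests were chosen with earlier results of these data known.

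RefSeq genes overlap TYMS (ENOSF1, TYMSOS), ORC1, MCM7, RFC5, CHAF1A, UHRF1 and PCNA, so their counts are uncertain without strand. Alternatives changed the pseudocount, filter, scaling, trend, weights, replicate block, the groups fitted and each library left out.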

Additional observations from a re-analysis of the deposited data

How the results depend on the processing

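For the 14 preset members and GINS2, no called value changed sign under the settings run. Shares in brackets are of all tested genes called, either way, under the same setting. Of the members called, siELOVL2 against control had 12 with library weights (8.41%, against 1.36% as reported), 9 when only the compared groups were fitted (3.35%) and 0 to 14 with each replicate left out (0.342% to 4.49%). For siELOVL5 against control the count was 1 with library weights (0.778%, against 0.139%), 1, MCM5, with the replicate block (0.531%) and 0 to 1 with each replicate left out (0.0487% to 0.222%), and the median was -0.18 with weights and -0.49 to -0.14 with each replicate left out. For the double knockdown against control the count was 4 with a filter of at least 10 (7.56%, against 4.42%), 0 with no intensity trend (2.21%), 19 with weights (12.0%) and 20 with only the compared groups (6.53%). It was 0 to 24 with each replicate left out (1.75% to 9.64%), and the median was -0.33 with weights and -0.43 to -0.33 with each replicate left out. Against siELOVL2 the double-knockdown median was -0.14 to -0.034 with each replicate left out. Against siELOVL5 it was -0.15 with weights and -0.25 to 0.13 with each replicate left out, and the count was 4 with weights (6.71%) and 0 to 4 with each replicate left out (0.845% to 4.28%). For siELOVL5 against siELOVL2 the count was 2 with weights (8.81%) and 0 to 2 with each replicate left out (0.910% to 3.87%), and the median 0.069 and -0.20 to 0.12. The interaction median was 0.084 with weights and 0.049 to 0.38 with each replicate left out. Weights gave siELOVL5 replicate 3 the least influence; fitting only the compared groups removed it from the fits of siELOVL2 and of the double knockdown against control. The cause of the other shifts was not tested. Over the comparisons of these members, 1229 values kept their side of the threshold with 1 library left out, 21 moved past it and 10 moved back. Under the other settings the numbers were 896, 32 and 2. Only the 14 preset members and GINS2 were counted here.

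Replicate numbers are shared between groups, but the labels do not say that they mark a shared day or culture. Of 18 same-numbered pairs, 9 had a correlation of deviations over 0.1 (-0.0012 to 0.212), and the main fits did not pair the samples. Yet 10 of 12 libraries were closest to their own number, and the mitosis list was lowest in replicate 3 of every group. Any shared effect of the number therefore stays in the spread behind the main p-values. With the replicate block, 10.01% of tested genes and 9 members were called in the double knockdown: CDC45, DTL, GINS2, ORC6, POLD1, POLE2, RRM1, TK1 and TYMS. With 3 libraries a group, folds of the size of most members here were recovered in few simulated cases (17% at 1.3-fold). That simulation held no library like siELOVL5 replicate 3, so this share need not hold for these genes.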

Other observations

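Genes of the replication checkpoint and fork repair stood below control by a smaller median amount than the 39 replication genes. The medians of these 17 genes were -0.17, -0.23 (-0.071 without siELOVL5 replicate 3) and -0.13 in siELOVL2, siELOVL5 and the double knockdown. Those of the 39 were -0.26, -0.36 (-0.14 without that library) and -0.39. With limma, 0 were called in each, and 4, 6 and 6 had an unadjusted p under 0.05, against 13.7%, 9.56% and 18.8% of all tested genes. FANCD2, of the Fanconi anemia pathway, had the lowest fold in siELOVL5, -0.53 (-0.33 without replicate 3), and its partner FANCI the lowest in the double knockdown, -0.54. RAD9A, of the checkpoint clamp, was the highest in siELOVL2, 0.17, and in the double knockdown, 0.09. Without siELOVL5 replicate 3, 5 were called lower in siELOVL2, 0 in siELOVL5 and 6 in the double knockdown, against 2.37%, 0.195% and 4.91% of tested genes. CHEK1, BRCA1, BRCA2 and FANCI were among those called in siELOVL2 and in the double knockdown, which share their controls.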
